A study of Mus musculus with 6 samples.

Results

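Serum amyloid A, orosomucoid and related acute phase transcripts were examined in whole livers of mice that lack the M2 form of pyruvate kinase (PKM2 KO) and of wild-type mice (WT). The 10 genes, Saa1, Saa2, Saa3, Saa4, Orm1, Orm2, Orm3, Lcn2, Hp and Apcs, were taken by symbol from the 23224 rows of the gene table, and all 10 passed the filter that left 13058 genes for testing. Each genotype had 3 independent mice, all 35 weeks old, untreated and on a mixed C57BL/6J x 129SvJ background. Loss of PKM2 was germline, so tissues other than liver lacked it too. The labels name no allele, sex, litter or batch, and they do not say whether a liver carried a tumour. Library totals ran from 27727048 to 36125711 expected counts, which are estimates of the reads from each gene. The targeted gene, listed as Pkm2 with its splice forms summed, was at 6.31 to 9.65 CPM (counts per 1000000) in PKM2 KO and 15.9 to 26.6 CPM across the WT livers livers. The summed level of 9 hepatocyte markers was lowest in WT 2 (77000 CPM) and highest in PKM2 KO 3 (118000 CPM). Most of that sum was albumin (Alb), at 45660 CPM in WT 2 and 82600 CPM in PKM2 KO 3. WT 2 was below every PKM2 KO liver for 4 of the 9 markers and above every one for 1. Among 13057 tested genes with a PKM2 KO mean above 0, it was below every one for 4091 and above every one for 33.3%. The median ratio of the 9 to the PKM2 KO mean was 0.926 in WT 2. Alb, Ttr, Apoa1 and Apoa2 are also among the negative acute phase genes described below. The markers of other cell types are given beside the genes they bear on. In whole tissue, fewer cells of a type and less RNA per cell cannot be told apart.

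The acute phase response is the change in liver secretion that follows infection or injury. Interleukin-6, interleukin-1 and tumour necrosis factor reach hepatocytes and act through STAT3, C/EBP factors and NF-kB, and secretion of the positive acute phase proteins increases while that of albumin and transthyretin decreases. In the mouse, Saa1 and Saa2 encode the serum amyloid A proteins that join high density lipoprotein, and Apcs encodes serum amyloid P, a pentraxin that serves as a major acute phase protein in this species. Orosomucoids are lipocalin-like carrier proteins, haptoglobin (Hp) binds free haemoglobin, and lipocalin 2 (Lcn2) binds bacterial siderophores and so withholds iron.

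WT 2 had the highest level of the 6 livers for all 10 genes, whereas WT 2 was the highest liver for 23% of all genes. WT 1 lay at the opposite end, below every PKM2 KO liver for 7 of the 10 genes against 29.1% of all genes. WT 3 was above every PKM2 KO liver for 6 genes (Saa1, Saa2, Saa3, Saa4, Lcn2 and Hp), against 34.2% of all genes. It was below every one for 3 (Orm2, Orm3 and Apcs), near the share over all genes (4334 of 13057). Within PKM2 KO, liver 3 was the highest for 9 of the 10 genes, and the share of all genes was not counted. The median ratio of that liver to the PKM2 KO mean was 1.23 for the 10 genes and 0.997 over all genes. For all 10 genes the SD of log2 CPM was larger in WT than in PKM2 KO, as it was for 70.3% of all genes.

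**Figure D1:**
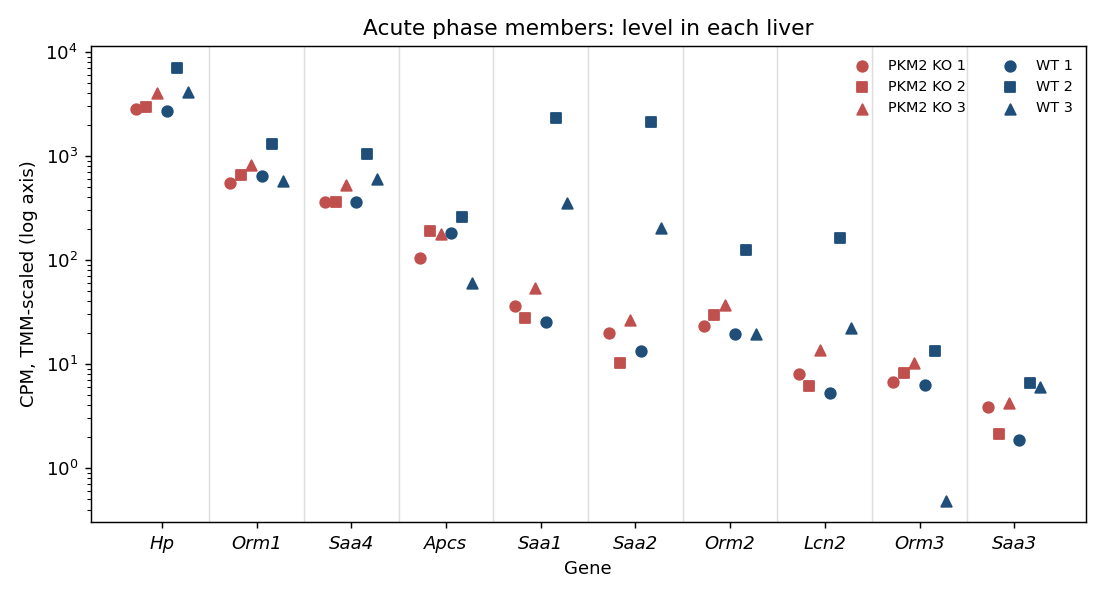
Level of the 10 genes in each liver, in TMM-scaled CPM on a log axis, with PKM2 KO livers in red, WT livers in blue and a marker for each replicate. WT 2 is the highest liver in every column, the lowest point of all is Orm3 in WT 3 at 0.487 CPM, and CPM is not scaled for gene length.

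No gene of the 10 passed an adjusted p of 0.05 over all genes in edgeR's quasi-likelihood test, where 0.0230% of all genes did. An unadjusted p under 0.05 was reached by 3 of the 10, all lower in PKM2 KO, and by 946 of the 13058 genes. DESeq2, which called 0.743% of genes, and limma voom also called none. The livers of the genotypes overlapped for all 10 genes, while 12.1% of all genes had no overlap. Of the 10 fitted log2 fold changes (PKM2 KO over WT), 9 were negative with a median of -0.597, beside 52.4% negative and a median of -0.0119 over all genes. The median of the 10 was -0.14 without WT 2 and -0.922 without WT 1.

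Saa1 and Saa2 lie side by side on chromosome 7 and encode the inducible serum amyloid A proteins. RefSeq lists each symbol as an older name of the other, so the names can be crossed between annotations. Their main transcripts, of 609 and 606 bases in GENCODE M21, matched in 93.9% of aligned positions, and 13.2% of the 50-base windows of Saa1 were found unchanged in Saa2. Reads from such windows are divided by estimation. The sequence just before each start was nearly the same (94.8% of aligned positions) and is shown because the 2 genes varied together. These are the 250 bases before the RefSeq start in GRCm38.p6, at chr7:46742981-46743230 on the minus strand for Saa1 and chr7:46751583-46751832 on the plus strand for Saa2, written 5′ to 3′ with the match to a C/EBP motif (TTNNGCAA, either strand) in capitals.
Saa1: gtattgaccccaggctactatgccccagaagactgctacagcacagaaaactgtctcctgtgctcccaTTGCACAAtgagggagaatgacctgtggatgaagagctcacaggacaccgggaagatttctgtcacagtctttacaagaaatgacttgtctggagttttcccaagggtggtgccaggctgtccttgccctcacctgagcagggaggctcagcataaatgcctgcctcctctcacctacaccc
Saa2: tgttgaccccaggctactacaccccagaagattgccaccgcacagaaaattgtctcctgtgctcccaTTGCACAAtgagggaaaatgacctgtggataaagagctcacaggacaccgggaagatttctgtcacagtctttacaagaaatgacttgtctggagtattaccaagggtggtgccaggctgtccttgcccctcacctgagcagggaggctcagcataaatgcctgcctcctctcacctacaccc

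The matched letters, TTGCACAA, were the same in both and began 182 bases before the start of Saa1 and 183 before that of Saa2. RefSeq held such windows for 8 of the 10 genes, all but Orm1 and Hp, and 7 of the 8 had a C/EBP match, as did 9.56% of 32851 mouse promoter windows of this length. The 8 windows are not independent, since those of Saa1 and Saa2 are near copies and those of Orm2 and Orm3 matched in 85.9% of aligned positions. A STAT motif (TTCNNNGAA) was found in 1 of the 8, that of Apcs, and in 7.02% of all windows. A shortened NF-kB motif (GGNNNTTCC, either strand) was found in 1 of the 8, that of Saa3, and in 15.7% of all windows. This pattern allows only 3 free bases between GG and TTCC. Sites of wider spacing, such as ggagttttcc in the Saa1 window above, were not counted. The 3 motifs did not overlap each other in these windows, and the motifs were picked for their known part in the acute phase response.

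Saa1 was at 36.4, 27.5 and 54.2 CPM across PKM2 KO livers 1, 2 and 3 and 25.7, 2323 and 356 CPM across WT livers 1, 2 and 3. Saa2 was at 19.8, 10.2 and 26.3 CPM across the PKM2 KO livers and 13.2, 2116 and 204 CPM across the WT livers. For both genes WT 2 and WT 3 lay far above the PKM2 KO livers, while WT 1 lay just under their range for Saa1 and inside it for Saa2. WT 2 was 59-fold (Saa1) and 113-fold (Saa2) above the PKM2 KO mean, WT 3 was 9.04-fold and 10.9-fold above it, and WT 1 was at 0.653 and 0.705 of it. Among 13057 tested genes with a PKM2 KO mean above 0, ranked by that ratio, Saa2 and Saa1 stood at places 23 and 25 in WT 2 and at 15 and 19 in WT 3.

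The fitted log2 fold change was -4.52 (SE 1.36, adjusted p = 0.566) for Saa1 and -5.37 (SE 1.59, adjusted p = 0.566) for Saa2. Without WT 2 the values were -2.28 and -2.54 (adjusted p = 0.848 for both), and without WT 1 they were -5.08 and -5.94 (adjusted p = 0.0686 and 0.0717). The 2 genes summed into 1 row, which needs no division of reads between them, gave a log2 fold change of -4.85 (adjusted p = 0.568). The ratio of Saa2 to Saa1, per transcript length, was 0.546, 0.374 and 0.488 in PKM2 KO livers and 0.518, 0.915 and 0.578 in WT livers. Saa2 came nearest to Saa1 in WT 2, the liver with the most of both.

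**Figure D2:**
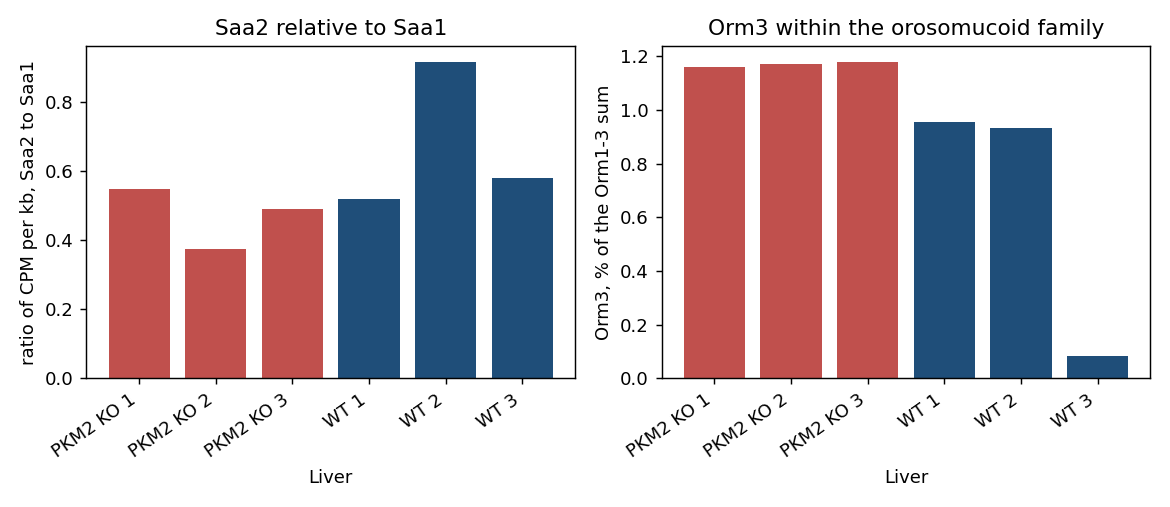
Left, ratio of Saa2 to Saa1 in CPM per kilobase of transcript in each liver, and right, Orm3 as a percent of the orosomucoid sum in the same unit, with PKM2 KO livers in red and WT livers in blue. The Saa2 to Saa1 ratio is highest in WT 2 (0.915), and the Orm3 share lies between 0.933% and 1.18% in every liver but WT 3 (0.0815%).

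Saa4 encodes the constitutive serum amyloid A of high density lipoprotein. It was at 363, 362 and 529 CPM across the PKM2 KO livers and 358, 1050 and 606.5 CPM across the WT livers, so WT 1 lay just below the lower PKM2 KO livers and WT 2 was 2.51-fold above the PKM2 KO mean. For Saa4 the log2 fold change was -0.68 (SE 0.374, adjusted p = 0.757) and -0.21 without WT 2. Saa3, which in the mouse is also made by macrophages and adipocytes, was low, at 3.86, 2.15 and 4.23 CPM across the PKM2 KO livers and 1.86, 6.54 and 5.96 CPM across the WT livers. WT 2 and WT 3 were alike for Saa3, at 1.92-fold and 1.75-fold the PKM2 KO mean, unlike the 59-fold and 9.04-fold seen for Saa1. Its log2 fold change was -0.49 (SE 0.465, adjusted p = 0.876), and -0.21 without WT 2 and -0.87 without WT 1.

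Other cells that make Saa3 or Lcn2 were followed through their markers. The 9 macrophage and Kupffer cell markers in the table summed to 361 to 398 CPM across the PKM2 KO livers and 447 to 483 CPM across the WT livers, and all 9 were tested with a negative fold change. Their most abundant members were Mpeg1, a pore-forming protein, and Cd5l, a Kupffer cell protein, at 109 ± 40.4 and 80.2 ± 6.17 CPM across the WT livers (SD, n = 3). The 7 adipocyte markers, of which 5 were tested, summed to 6.72 to 19.4 CPM across the PKM2 KO livers and 12.4 to 33.1 CPM across the WT livers. Their sum was highest in WT 1 through Cidec, and without Cidec it was 14.4, 19.6 and 11 CPM over WT livers 1 to 3 and 5.72 to 14.3 CPM over the PKM2 KO livers. WT 2 was the highest liver for 5 of the 7, and Adipoq, Cfd and Retn had a count of 0 in WT 3. Fabp4, a fatty acid binding protein, was at 11.5 ± 0.951 CPM across the WT livers, and Cidec, a lipid droplet protein, was at 8.29 ± 9.21 CPM. DESeq2, which called 0.743% of genes, called Fabp4 (adjusted p = 0.00607) and the macrophage complement gene C1qa (adjusted p = 0.00655) lower in PKM2 KO. Both were named for that call, and edgeR called neither (adjusted p = 0.488 for Fabp4 and 0.466 for C1qa). The part of these cells in the Saa3 values was not tested.

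Lcn2 followed Saa1 and Saa2 in the order of the WT livers. It was at 8.06, 6.16 and 13.8 CPM across the PKM2 KO livers and 5.26, 161 and 22.2 CPM across the WT livers. WT 2 was 17.3-fold and WT 3 was 2.38-fold above the PKM2 KO mean, and WT 1 was below every PKM2 KO liver. The log2 fold change was -2.75 (SE 1.09, adjusted p = 0.668) and -0.56 without WT 2. Its promoter window, at chr2:32387740-32387989 on the minus strand of GRCm38.p6, is shown beside those of Saa1 and Saa2 because the 3 genes had the largest WT 2 ratios of the 10. It holds the same motif, in capitals, at 216 bases before the start.
Lcn2: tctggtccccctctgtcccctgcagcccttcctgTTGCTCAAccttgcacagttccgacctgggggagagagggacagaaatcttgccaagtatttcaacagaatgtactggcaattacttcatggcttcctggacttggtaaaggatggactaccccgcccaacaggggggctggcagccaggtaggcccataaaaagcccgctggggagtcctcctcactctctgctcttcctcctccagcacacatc

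Neutrophils also store Lcn2. The 12 neutrophil markers in the table summed to 6.31, 4.94 and 6.05 CPM across the PKM2 KO livers and to 7.69, 18.9 and 10.9 CPM across the WT livers, in the same order over the WT livers as Lcn2. No marker was at 0 in all livers, but only 5 were high enough to test, all with negative fold changes. Mpo, the granule myeloperoxidase, was picked after its values were known and had a count of 0 in 4 of the 6 livers, with 1 count in WT 2 and 3 in WT 3. Fpr1 and Csf3r, chemoattractant and growth factor receptors, had the highest mean CPM of these markers. Across the WT livers Fpr1 was at 3.43, 3.02 and 3.465 CPM and Csf3r at 1.57, 3.27 and 2.49 CPM. WT 2 was thus the lowest WT liver for Fpr1, while it was the highest of the 6 livers for 7 of the 12 markers. S100a8 and S100a9, the subunits of calprotectin and also named after their values were known, had the largest WT 2 ratios of the 5 tested markers. S100a8 was 14.7-fold and S100a9 13.8-fold above the PKM2 KO mean in WT 2, and they were 3.88-fold and 2.86-fold above it in WT 3. Their log2 fold changes were -2.68 (adjusted p = 0.637) and -2.60 (adjusted p = 0.597), and the genotypes did not overlap for S100a9. The part of neutrophils in the Lcn2 values was not tested.

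**Figure D3:**
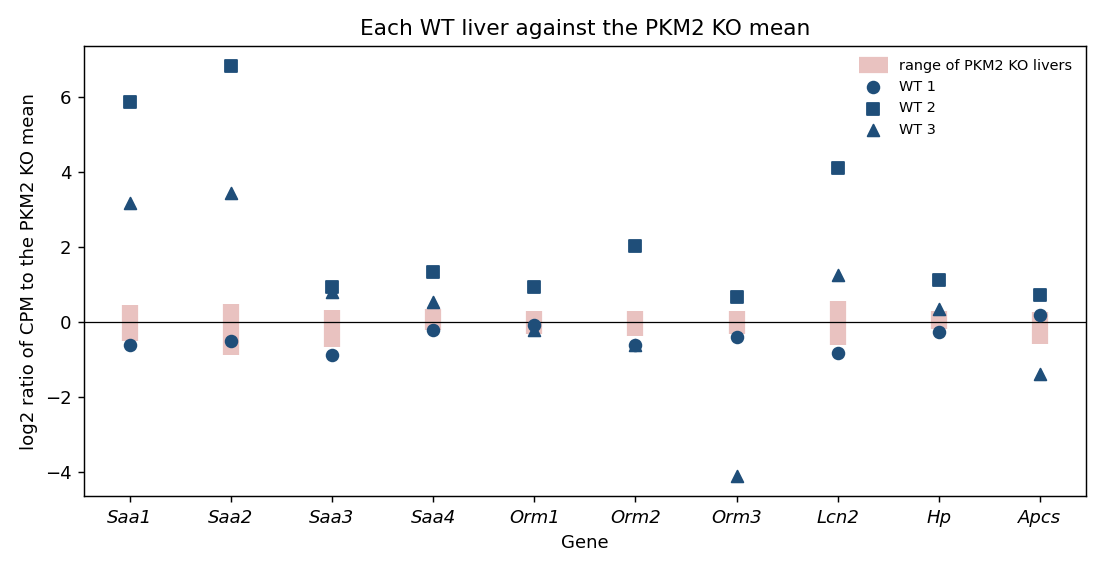
log2 ratio of each WT liver to the PKM2 KO mean, in CPM, for the 10 genes, with the range of the PKM2 KO livers as a red band. WT 2 lies above the band for all 10 genes, and WT 3 lies above it for Saa1 (9.04-fold) and far below it for Orm3 (0.0584 of the mean).

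The orosomucoid genes Orm1, Orm2 and Orm3 form a cluster on chromosome 4. Their transcripts matched in 86.4% to 91% of aligned positions, and 20.4% of the 50-base windows of Orm1 were found in Orm2. Orm1 was at 546, 659 and 819.9 CPM across the PKM2 KO livers and 642, 1299 and 579.7 CPM across the WT livers. Orm2 was at 23.4, 29.8 and 36.9 CPM across the PKM2 KO livers and 19.6, 124 and 19.6 CPM across the WT livers. Only WT 2 stood above the PKM2 KO range for either gene, 1.92-fold (Orm1) and 4.12-fold (Orm2) above the PKM2 KO mean, and WT 3, which had 9.04 times the mean for Saa1, was at 0.859 and 0.654 of it.

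Both fold changes turned with WT 2. The log2 fold change of Orm1 was -0.32 (SE 0.329, adjusted p = 0.895) with all livers and 0.14 without WT 2. For Orm2 it was -0.86 (SE 0.7, adjusted p = 0.842) with all livers and 0.62 (SE 0.195, adjusted p = 0.82) without WT 2. Summed into 1 row, the 3 genes gave -0.34 (adjusted p = 0.894).

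Orm3 lay farther from its nearest member than any other of the 10 genes did, at a root-mean-square distance of 0.946 from Apcs in centred log2 CPM. Its level was 6.69, 8.15 and 10.2 CPM across the PKM2 KO livers and 6.36, 13.4 and 0.487 CPM across the WT livers. WT 3 had 18 expected counts, with an exact Poisson 95% interval of 10.7 to 28.4 counts (0.289 to 0.77 CPM) for counting error only, while the next lowest liver was at 6.36 CPM. WT 3 was at 0.0584 of the PKM2 KO mean, and this ratio was the 25th lowest of the 13057 genes in that liver. As a share of the orosomucoid sum, per length, Orm3 held 1.16%, 1.17% and 1.18% in PKM2 KO livers, 0.955% in WT 1, 0.933% in WT 2 and 0.0815% in WT 3. Orm2 held 4.06% to 4.27% in PKM2 KO, 2.93% in WT 1, 8.62% in WT 2 and 3.27% in WT 3. The Orm3 share was thus near constant in 5 livers and lower in WT 3, and the Orm2 share was highest in WT 2. How the estimation divides reads between these copies can bear on such shares, and this was not tested. The labels do not give the strain origin of the locus in each mouse of the mixed background, so whether the 0.487 CPM of WT 3 reflects a sequence difference was not tested either. The fitted log2 fold change of Orm3 was 0.31 (SE 0.83, adjusted p = 0.963), the only positive value of the 10, and it was -0.24 without WT 3 and 1.31 without WT 2.

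The windows before Orm2 and Orm3 matched in 85.9% of aligned positions and are shown because the 2 genes parted in WT 3. They lie at chr4:63362199-63362448 (Orm2) and chr4:63355908-63356157 (Orm3), both on the plus strand of GRCm38.p6. The C/EBP match, in capitals, began 120 and 121 bases before the start and read TTGCGCAA in Orm2 and TTGCACAA in Orm3.
Orm2: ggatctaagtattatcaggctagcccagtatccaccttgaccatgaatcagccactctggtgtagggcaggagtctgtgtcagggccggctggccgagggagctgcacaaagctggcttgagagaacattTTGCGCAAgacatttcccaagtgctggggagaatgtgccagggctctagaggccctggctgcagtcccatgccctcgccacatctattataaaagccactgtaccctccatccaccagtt
Orm3: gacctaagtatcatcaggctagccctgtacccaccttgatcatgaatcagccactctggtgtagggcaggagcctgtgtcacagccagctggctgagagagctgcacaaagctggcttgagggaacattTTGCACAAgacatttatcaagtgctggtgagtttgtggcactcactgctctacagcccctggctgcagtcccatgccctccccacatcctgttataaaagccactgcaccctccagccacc

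Hp, the haemoglobin scavenger, was at 2856, 2958 and 3998 CPM across the PKM2 KO livers and 2715, 7086 and 4171 CPM across the WT livers. WT 2 was 2.17-fold above the PKM2 KO mean, and WT 3 was only slightly above PKM2 KO 3. Its log2 fold change was -0.51 (SE 0.356, adjusted p = 0.806) and -0.07 without WT 2. Over the 6 livers Hp and Saa4 had the most similar profiles of any 2 members, with a root-mean-square distance of 0.0988 between their log2 CPM, each centred on its own mean.

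Apcs, the pentraxin, was at 105, 189.5 and 179 CPM across the PKM2 KO livers and 182, 261 and 60.1 CPM across the WT livers. WT 1 lay inside the PKM2 KO range, WT 2 was 1.65-fold above the PKM2 KO mean and WT 3 was at 0.381 of it, and, as for Orm3, WT 3 was the lowest of the 6 livers. The log2 fold change was -0.09 (SE 0.484, adjusted p = 0.982), and it was 0.39 without WT 2 and -0.48 without WT 3.

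**Figure D4:**
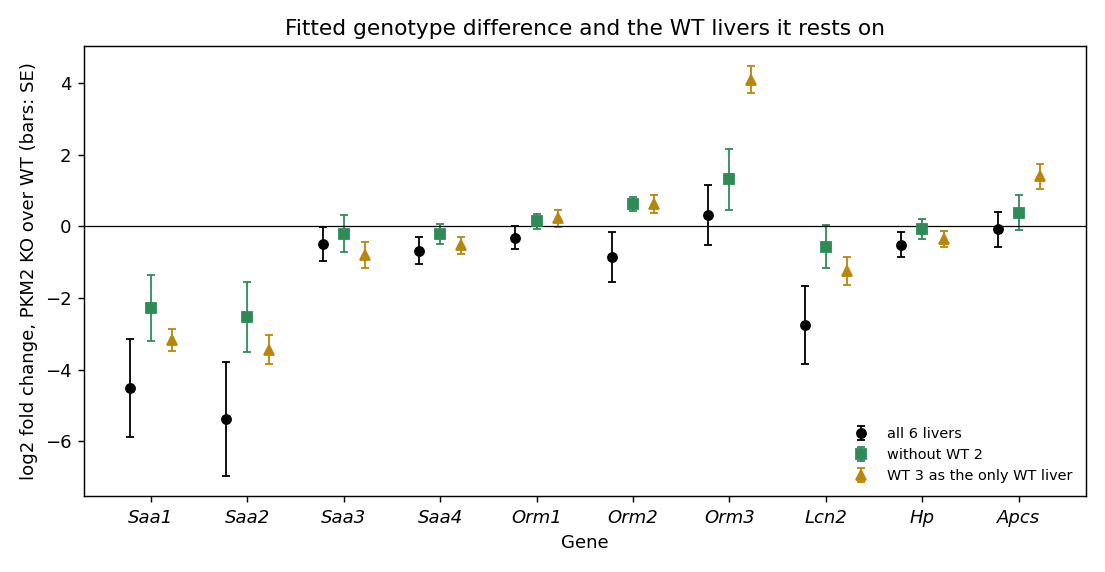
Fitted log2 fold change (PKM2 KO over WT) of each gene with its SE, for all 6 livers, without WT 2, and for WT 3 alone against PKM2 KO. The values of Saa1 and Saa2 stay negative in the 3 fits, while Orm1 and Orm2 go from -0.32 and -0.86 to 0.14 and 0.62 without WT 2.

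Transcripts of pancreatic enzymes were present in WT 1 and WT 2. The summed level of 15 acinar markers was 3440, 9930 and 34.2 CPM over WT livers 1 to 3 and 35.2 to 64.1 CPM over the PKM2 KO livers. None of the 15 passed in edgeR with all livers. DESeq2, which called 0.743% of genes, called 14 of them lower in PKM2 KO. Without WT 3, edgeR called all 15 lower, where 51 genes passed over all genes. The pancreatic amylase Amy2a5 and the chymotrypsinogen Ctrb1 were at 4310 and 814 CPM in WT 2. Saa1 was at 25.7, 2323 and 356 CPM over the same WT livers, and whether its level is linked to these transcripts was not tested. With WT 3 as the only WT liver, 3 of the 10 genes passed an adjusted p of 0.05 in edgeR, where 1.19% of genes did. These were Saa1 (log2 fold change -3.17, adjusted p = 0.0213), Saa2 (-3.44, adjusted p = 0.029) and Orm3 (4.09, adjusted p = 0.0158). Apcs was at 1.40 (adjusted p = 0.13). In that fit a lone WT mouse is assumed to vary as the PKM2 KO mice do, and the spread among WT livers was larger for all 10 genes, so it compares 1 liver with the PKM2 KO group. The bile duct markers, 5 in number, summed to 26.7 to 31.9 CPM across the PKM2 KO livers and 31.9 to 46.5 CPM across the WT livers. Spp1, a secreted phosphoprotein, was at 31.1 CPM and Sox9, a duct transcription factor, at 4.89 CPM in WT 2. None of the 5 passed in edgeR with all livers. Krt19, named for its calls, was lower in PKM2 KO in DESeq2 (adjusted p = 0.0497) and in edgeR without WT 3 (adjusted p = 0.047).

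Of 24 other positive acute phase genes, all tested, none passed in edgeR over all genes, and 21 had a negative fold change, with a median of -0.698 over the list and -0.255 without WT 2. Some passed in other fits, all of them lower in PKM2 KO. DESeq2 called 3 (Il1rn, Mt1 and Mt2), and edgeR without WT 1, where 0.382% of genes passed, called 2 (Mt1 and Mt2). Il1rn, Mt1, Mt2 and Steap4 also passed for WT 3 alone against PKM2 KO. WT 2 lay above every PKM2 KO liver for 21 and WT 3 for 19 of the 24 (33.3% and 34.2% of all genes), and WT 1 lay below every PKM2 KO liver for 12. In 5 of the 24 all PKM2 KO livers were below all WT livers, where 12.1% of all genes had no overlap. The median ratio to the PKM2 KO mean was 0.836 in WT 1, 1.88 in WT 2 and 1.51 in WT 3, and 0.734, 2.34 and 1.36 for the 10 members. WT 3 therefore stood nearer to WT 2 in the wider list than in the members.

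The 2 with the smallest p were Mt1 and Il1rn. Mt1, a zinc-binding metallothionein, was at 14.5, 12.5 and 15.4 CPM across the PKM2 KO livers and 23.5, 488 and 304 CPM across the WT livers, with a fitted log2 fold change of -4.27 (adjusted p = 0.523). Il1rn, the secreted antagonist of the interleukin-1 receptor, was at 2.55, 1.71 and 1.95 CPM across the PKM2 KO livers and 4.68, 3.86 and 7.61 CPM across the WT livers, with a fitted log2 fold change of -1.38 (adjusted p = 0.504). Mt1 was high in the same 2 livers as Saa1, whereas Il1rn was highest in WT 3. Of the most abundant genes of the list, the fibrinogen chain Fga was at 3042, 3750 and 4082 CPM across the PKM2 KO livers and 3002, 10340 and 6640 CPM across the WT livers. The complement component C3 was at 8174, 8274 and 10460 CPM across the PKM2 KO livers and 5995, 9583 and 10450 CPM across the WT livers, so WT 2 lay inside the PKM2 KO range for C3 and above it for Fga.

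**Figure D5:**
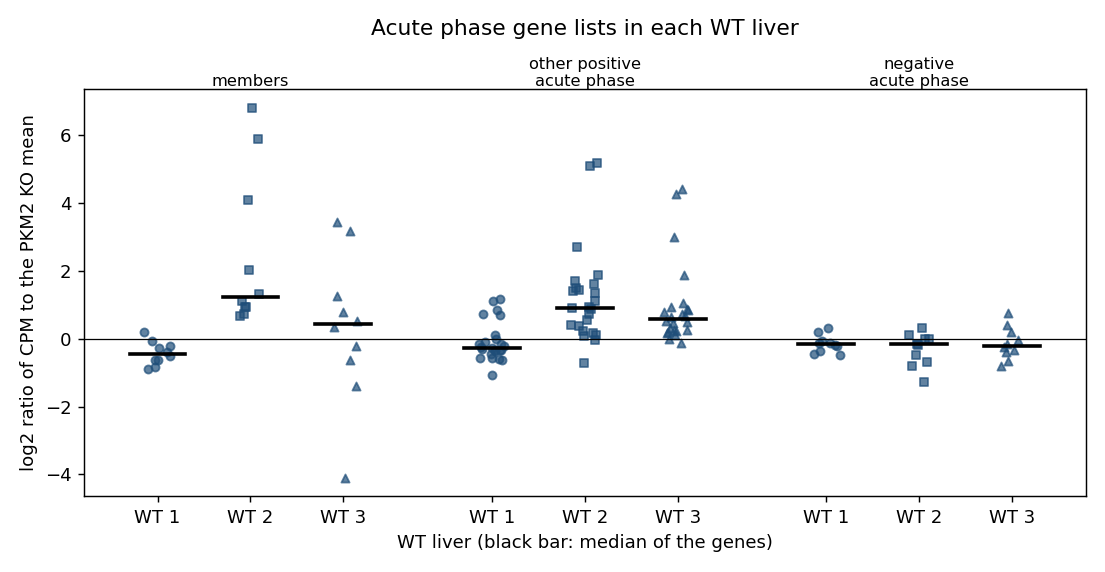
log2 ratio of each WT liver to the PKM2 KO mean, in CPM, for the 10 members, 24 other positive and 10 negative acute phase genes, with the median of the genes as a black bar. The positive genes lie highest in WT 2, with medians of 2.34-fold (members) and 1.88-fold (others), while the negative genes lie at medians of 0.873 to 0.906 in the WT livers.

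Of 10 negative acute phase genes, none passed and 7 had a positive fold change, with a median of 0.191. That median was 0.0639 without PKM2 KO 3, 0.122 without WT 2 and 0.121 without WT 3. Alb, serum albumin, was at 81810, 73860 and 82600 CPM across the PKM2 KO livers and 68840, 45660 and 77630 CPM across the WT livers. Ttr, the thyroid hormone carrier transthyretin, was at 7248, 7848 and 8545 CPM across the PKM2 KO livers and 7297, 4905 and 5005 CPM across the WT livers, with a fitted log2 fold change of 0.46 (adjusted p = 0.737). Serpina6, the corticosteroid carrier, was at 399, 403 and 508 CPM across the PKM2 KO livers and 315, 179.8 and 331 CPM across the WT livers, with no overlap (log2 fold change 0.67, adjusted p = 0.653). WT 2 was thus the lowest liver for these 3 carriers, and Ttr was low in WT 3 as well. Trf, the iron carrier transferrin, did not follow them, at 14910 CPM in WT 2 and 14480 to 15310 CPM in PKM2 KO.

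Of 9 cytokine ligand genes, 3 (Il1a, Il1b and Il11) had enough counts to be tested, and none passed. Il6, chosen after its values were seen, had a count of 0 in 5 of the 6 livers. Il1b was at 2.52, 1.37 and 1.4 CPM across the PKM2 KO livers and 2.11, 3.3 and 1.76 CPM across the WT livers, with a fitted log2 fold change of -0.44 (adjusted p = 0.825), and Il1a and Il11 had log2 fold changes of -0.11 and 0.50. WT 2 was the highest liver for Il1b among these 3 ligands but not for the other two.

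Of 23 receptors and signalling genes, none passed, with 6 positive and 17 negative fold changes and a median of -0.223, which was -0.104 for WT 3 alone against PKM2 KO. WT 2 and WT 3 each lay above every PKM2 KO liver for 12 of them. Osmr, the oncostatin M receptor, was at 2.38, 1.77 and 1.79 CPM across the PKM2 KO livers and 2.5, 6.35 and 5.2 CPM across the WT livers, with a fitted log2 fold change of -1.25 (adjusted p = 0.566). The log2 fold change of Nfkb2, an NF-kB subunit, was -0.44 (adjusted p = 0.641), and the genotypes did not overlap for Osmr or Nfkb2. Of the 23 genes, 3 were lower and 2 higher in PKM2 KO without overlap, where 12.1% of all genes had no overlap. Stat3, the transcription factor downstream of interleukin-6, was singled out after its values were known. It was at 93.5, 105 and 97 CPM across the PKM2 KO livers and 83.1, 264 and 164 CPM across the WT livers, in the order of Saa1 over the WT livers. Socs3 and Cebpd, also named after their values were known, were in other orders, at 15.7, 31.5 and 6.8 CPM and 6.15, 3.86 and 3.82 CPM across the WT livers. WT 2 was the highest liver for 10 of the 23 genes. The abundant hepatocyte factors Cebpa and Hnf4a were within 331 to 513 and 407 to 542 CPM in all livers, and WT 2 was the lowest of them for Cebpa.

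The genes outside the 10 whose profile over the 6 livers was nearest to the mean profile of the members were B3galt1, Isyna1, Cpne8, Il1r1, Tifa, Cd300e, Steap4 and Dnajc12, at root-mean-square distances of 0.212 to 0.323 in centred log2 CPM. Il1r1, the signalling receptor of interleukin-1, was at 14.3, 21.1 and 27.1 CPM across the PKM2 KO livers and 16.4, 98.5 and 32.6 CPM across the WT livers. Tifa, an adaptor that leads to NF-kB, was at 15, 19 and 17.2 CPM across the PKM2 KO livers and 11.9, 82.4 and 19.2 CPM across the WT livers. Steap4, a metalloreductase and member of the wider acute phase list, was at 155, 172 and 180.0 CPM across the PKM2 KO livers and 131, 1118 and 353 CPM across the WT livers. All 8 overlapped between genotypes and none passed, with WT 2 the highest liver for each. The profile rests on 6 livers and mainly on WT 2, which stood 2.08 above the mean of the profile in log2 units, where the other livers stood between -0.789 and -0.0253.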

How the data were processed

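Polyadenylated RNA of ground, flash-frozen liver was sequenced from TruSeq libraries, per the labels' protocols. The deposited table holds expected counts per gene and liver, unscaled. Between 21.2% and 23.8% of values per library were not whole. RSEM 1.2.12, Bowtie 1.0.1 and the mm9 build are named, per the submitters' processing notes. The annotation and strandedness are not given in the sources used here.

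Expected counts were rounded, filtered with filterByExpr and scaled by TMM (factors 0.8899 to 1.084). Genotypes were compared across all genes with the quasi-likelihood F test of edgeR 4.0.16 in R 4.3.3, with genotype as the only term and Benjamini-Hochberg adjustment at 0.05. SE is the absolute log2 fold change over the square root of F. DESeq2 1.42.0 and voom of limma 3.58.1 were alternatives, beside other scalings, filters, sums of near-identical genes and left-out livers. The fit was tested on simulated data. No library pair was alike within sampling noise.

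The members, gene lists, cell type markers and alternatives were chosen with earlier results of these data known, and the promoter motifs later still. Named genes were the members, the 2 with the smallest p and the 2 most abundant of each pathway list, the 2 most abundant of each marker list, and the 8 nearest profiles among tested genes averaging 50 or more counts. Profiles used log2 CPM with a prior count of 2. Promoter windows came from RefSeq (GRCm38.p6) and transcripts from GENCODE M21, aligned in Biopython 1.88, and neither is the build of the counts. Plots used matplotlib 3.10.9.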

Additional observations from a re-analysis of the deposited data

How the results depend on the processing

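None of the 10 genes passed in any alternative except with WT 3 as the only WT liver (3 genes). Their median log2 fold change stayed negative throughout, between -0.922 (without WT replicate 1) and -0.14 (without WT replicate 2). Over all genes, where 3 passed, the count was 5 without a filter, 5 with limma voom, 6 with robust quasi-likelihood, 97 with DESeq2, 163 for WT 3 alone against PKM2 KO, and 3 to 51 when each liver was left out in turn. The cause was not tested. Saa1, Saa2, Saa3, Saa4, Lcn2 and Hp kept a negative sign in every alternative run. The log2 fold change of Orm1 was 0.22 for WT 3 alone against PKM2 KO and -0.52 to 0.14 with a liver left out. For Orm2 these values were 0.62 and -1.25 to 0.62. Orm3 ran from -0.24 to 1.31 with a liver left out. Apcs was at 0.0873 with limma voom, 1.40 for WT 3 alone and -0.48 to 0.39 with a liver left out.

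Same-numbered livers did not deviate together (correlations of -0.0509, 0.0266 and -0.0915). Such correlations cannot show whether same-numbered mice were littermates or handled together, and the labels do not say. With the replicate block 7 genes passed, none of the 10, whose median was -0.396, and Apcs was at 0.0769.

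With 3 mice per genotype and the WT spread of Saa1, a genotype difference of that size could not be told from differences among WT mice. Whether single animals are typical of WT was not tested.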

Other observations

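Of 10 genes for receptors and clearance partners of the members, 9 were tested, none passed, and 4 had a positive fold change, with a median of -0.0739 (-0.218 for WT 3 alone against PKM2 KO). Lrp1, the receptor that takes up haem bound to hemopexin, was at 1013, 1174 and 965 CPM in PKM2 KO and 723, 1178 and 1225 CPM in WT. Scarb1, a receptor for high density lipoprotein, was at 122, 162 and 164 CPM in PKM2 KO and 138, 152.5 and 181 CPM in WT. Fpr2, a formyl peptide receptor that binds serum amyloid A, and Tlr2, a receptor for bacterial lipoproteins, had log2 fold changes of -0.82 and -0.55 (adjusted p = 0.718 and 0.744 in edgeR). Both were highest in WT 2, at 1.77 and 5.51 CPM. Cd163, the scavenger receptor for haptoglobin bound to haemoglobin and chosen after its values were seen, was within 19.1 to 22.9 CPM in all 6 livers.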
